A study of Mus musculus with 160 samples.

Results

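Ly6a, Clu, Anxa1, Il1rl1, Ccn1, Ccn2 and Msln were followed through 160 RNA-seq libraries from the distal colon of mice of 4 knockout lines. These 7 genes, of the 39179 genes counted, were taken by name as genes known to be switched on in damaged gut epithelium that turns back to a fetal-like program. The choice was made with earlier results of these data known. The Ensembl identifiers of the genes in the count tables were mapped to mouse symbols, and all 7 were found. Each library is 1 mouse, sampled from the last 2 cm of the colon, and the values are read counts scaled to a library total of 1000000 (CPM).

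Each line was made to lack 1 gene that is active mainly in blood cells, and its wild-type controls are littermates from crosses between heterozygotes. The labels write HO for homozygous knockout mice (KO) and give WT for the controls. The Nckap1l line (labelled HEM1) had 16 KO and 15 WT libraries on C57BL6/J, from 12 females and 19 males. The Dock2 line had 18 KO and 24 WT libraries on C57BL6/J, from 20 females and 22 males. The Gpsm3 line had 20 KO and 20 WT libraries from C57BL6/J males. The Dok3 line had 26 KO and 21 WT libraries, which the labels place on the 129 strain, all from males. The colitis protocol was dextran sodium sulfate (DSS) in the drinking water for 5 days and plain water for 5 days, with collection on day 10. The labels give DSS at 3% for Dock2 and Gpsm3 and at 3.5% for Dok3, and the study's methods add that a first round of Dok3 mice had 3%. Which Dok3 libraries come from that round is not given. The Nckap1l line had 7 days of water and collection on day 12, and the methods describe a slightly lower dose for it. Both DSS-treated and untreated mice were sequenced, but the labels do not say which library is which. The methods describe age-matched young adult mice. No comparison of treated with untreated mice was therefore made, and the neutrophil content of each library was used as a continuous measure of inflammation. The genes were deleted in the whole animal, so a difference between genotypes is not tied to 1 cell type, and line, strain, dose and day cannot be told apart between lines.

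When the gut lining is injured, surviving epithelial cells near the wound give up their normal identity, lose the markers of the adult stem cell and take on genes otherwise seen in the fetal gut. The transcriptional co-activators Yap1 and Wwtr1 (TAZ), which bind DNA through the TEAD factors, are known drivers of this state. Ly6a encodes Sca-1, the surface antigen by which fetal-like colon epithelium is sorted. Clu encodes the secreted chaperone clusterin, the marker of revival stem cells. Anxa1 encodes annexin A1, a phospholipid-binding protein that restrains neutrophil entry and promotes wound closure. Il1rl1 encodes ST2, the receptor of the alarmin IL-33. Ccn1 and Ccn2 encode secreted matricellular proteins (CYR61 and CTGF) that are classic YAP targets. Msln encodes mesothelin, a surface glycoprotein of mesothelial cells that also appears in fetal-like epithelium. None of these genes belongs to the epithelium alone: Ly6a is also made by T cells and endothelium, Clu by follicular dendritic cells, Anxa1 by myeloid cells and by squamous epithelium, Il1rl1 by mast cells, regulatory T cells and innate lymphoid cells, and Ccn1 and Ccn2 by the stroma. In bulk tissue, more cells of a type and more RNA per cell cannot be told apart.

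The library totals ranged from 4344988 to 19993833 counts with a median of 15989625, so 3 counts correspond to 0.15 to 0.69 CPM. Pan-epithelial genes such as Epcam and Krt8 were read in every library (7 genes, 2183 to 11757 CPM summed), as the tissue label requires. Squamous epithelium, which lines the anal canal below the colon, was present in part of the libraries. Krt1, a keratin of stratified squamous epithelium, reached 10 CPM or more in 34 of the 160 libraries, and those are called squamous-positive below. The 2 highest libraries under that limit had 4.22 and 3.23 CPM of Krt1 and the 2 lowest above it had 12.96 and 17.19 CPM, while the highest had 4896 CPM. The squamous-positive libraries were 7 KO and 8 WT of Nckap1l, 1 KO and 4 WT of Dock2, 2 KO and 1 WT of Gpsm3, and 5 KO and 6 WT of Dok3. In the Nckap1l line they were gathered in 1 run of sample numbers, 13 of its 14 libraries, against 1 of 9 and 1 of 8 in the other runs, so squamous tissue and that run cannot be told apart there. In 5 Dok3 libraries (3 KO and 2 WT) the sex-linked transcripts went against the male label.

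On the GRCm38 genome, Il1rl1 lies on chromosome 1 (40429570 to 40465415, plus strand) and Ccn1 on chromosome 3 (145646976 to 145649981, minus strand). Ccn2 lies on chromosome 10 (24595442 to 24598683, plus strand), Clu on chromosome 14 (65968483 to 65981547, plus strand) and Ly6a on chromosome 15 (74994877 to 74998031, minus strand). Msln lies on chromosome 17 (25748613 to 25754378, minus strand) and Anxa1 on chromosome 19 (20373428 to 20390944, minus strand). All 7 are protein-coding and were counted over their exons. Ccn2 shares 665 exon bases with the antisense transcript Gm15270, which had at most 19 counts in any library.

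The 250 bases before the annotated start sites in RefSeq (GRCm38.p6) were read for Il1rl1, which has more than 1 start, for Ccn1 and for Anxa1 (3 of the 7 genes matched), because TEAD factors, the DNA-binding partners of YAP, are known to bind the letters CATTCC. The sequences run 5′ to 3′ on the gene's own strand, up to the base before the start. Capitals mark CATTCC or, read on the other strand, GGAATG.
Il1rl1, upstream start, chr1:40429320-40429569, plus strand: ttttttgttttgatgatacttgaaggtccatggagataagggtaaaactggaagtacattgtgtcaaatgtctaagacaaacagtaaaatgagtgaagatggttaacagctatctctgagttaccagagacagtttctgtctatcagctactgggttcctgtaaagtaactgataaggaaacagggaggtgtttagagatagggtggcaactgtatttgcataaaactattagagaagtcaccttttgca
Il1rl1, downstream start, chr1:40439379-40439628, plus strand: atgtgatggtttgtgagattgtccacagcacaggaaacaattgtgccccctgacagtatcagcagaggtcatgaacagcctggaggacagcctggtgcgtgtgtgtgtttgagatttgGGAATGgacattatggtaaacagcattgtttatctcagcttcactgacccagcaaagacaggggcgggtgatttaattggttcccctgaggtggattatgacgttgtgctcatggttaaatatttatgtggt
Ccn1, chr3:145649986-145650235, minus strand: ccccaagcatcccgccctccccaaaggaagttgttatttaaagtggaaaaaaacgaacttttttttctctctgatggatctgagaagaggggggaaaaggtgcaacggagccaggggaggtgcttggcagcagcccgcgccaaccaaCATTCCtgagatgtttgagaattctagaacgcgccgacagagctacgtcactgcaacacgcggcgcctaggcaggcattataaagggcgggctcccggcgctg
Anxa1, chr19:20390672-20390921, minus strand: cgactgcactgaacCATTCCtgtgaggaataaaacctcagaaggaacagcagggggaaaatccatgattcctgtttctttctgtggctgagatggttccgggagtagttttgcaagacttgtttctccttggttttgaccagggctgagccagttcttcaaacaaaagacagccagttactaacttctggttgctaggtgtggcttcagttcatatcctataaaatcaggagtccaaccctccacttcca
The motif begins 132 bases before the downstream start of Il1rl1, 103 bases before that of Ccn1 and 236 bases before that of Anxa1, and these letters are not in the window of the upstream Il1rl1 start. On either strand, CATTCC was found in 12.6% of all promoter windows of this length (4153 of 32851). The AP-1 letters TGANTCA and the STAT letters TTCNNNGAA, both of which read the same on either strand and can overlap CATTCC, occurred in 6.7% and 7.0% of all windows and in none of these. A match of letters is a description of the window and says nothing of binding.

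Ly6a and Anxa1 were the most abundant of the 7 genes and Msln the least. Per kilobase of exon, the median level over the 160 libraries was 143 CPM for Ly6a, 80.0 for Anxa1, 17.04 for Clu, 9.69 for Ccn2, 6.80 for Ccn1, 0.922 for Il1rl1 and 0.36 for Msln. The spread between mice was far wider for the last pair. Within a line, the highest library held 15.3 to 30.5 times the median of Il1rl1 and 8.06 to 27.3 times that of Msln, compared with 2.36 to 3.27 times for Clu and 1.84 to 4.99 times for Ccn2. Ly6a (2.83 to 5.46 times), Anxa1 (3.01 to 5.79 times) and Ccn1 (3.10 to 7.99 times) lay between. In the plot of CPM by line and genotype the KO and WT libraries overlap for each gene, although the ends of their ranges differ.

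**Figure D1:**
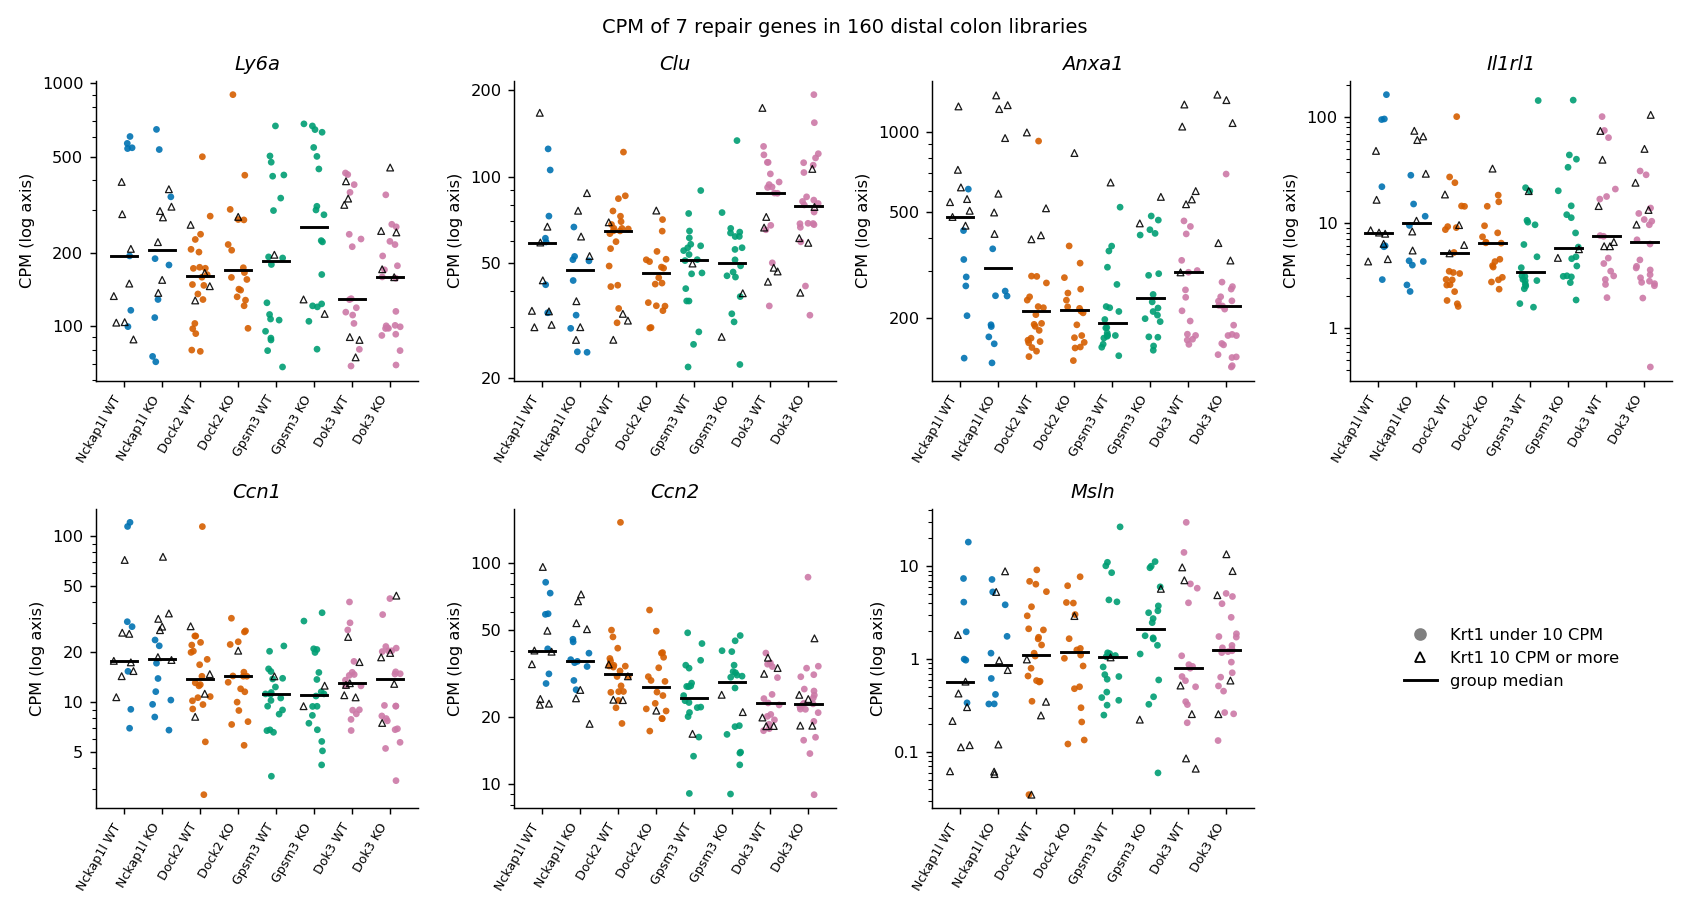
CPM of the 7 genes on a log axis in every library, by line and genotype; circles are libraries with Krt1 under 10 CPM, open triangles those with 10 CPM or more, and bars are group medians. The KO and WT libraries of every line overlap for every gene, Il1rl1 and Msln have long upper tails, and the triangles sit high for Anxa1.

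Ly6a, the Sca-1 gene, had a level of 68.0 CPM in the lowest library, 172 at the median and 899 in the highest. In the Nckap1l line the WT libraries gave 88.3, 195 and 604 CPM (lowest, median, highest) and the KO libraries 71.4, 206 and 647. In the Dock2 line WT gave 78.9, 161 and 499 CPM and KO 98.1, 170 and 899. The genotypes overlapped in both lines, and the Dock2 KO range ended above that of WT. In the Gpsm3 line WT gave 68.0, 185 and 668 CPM and KO 80.5, 257 and 681, and in the Dok3 line WT gave 68.6, 130 and 428 and KO 69.3, 159 and 450. The highest library of all, a Dock2 KO at 899 CPM, ranked 29 of 160 by neutrophil score, so the top of Ly6a was not the top of that score.

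Il1rl1, the IL-33 receptor gene, was low in most mice and very high in a few. Over all libraries it had 0.429 CPM in the lowest, 6.36 at the median and 164 in the highest. The Nckap1l WT libraries gave 2.89, 8.07 and 164 CPM (lowest, median, highest) and the KO libraries 2.23, 9.94 and 74.4. The Dock2 WT libraries gave 1.61, 5.18 and 101 and the KO libraries 2.34, 6.43 and 32.6. In both lines the highest library was a WT mouse. The Gpsm3 WT libraries gave 1.58, 3.44 and 144 and the KO libraries 1.85, 5.74 and 145. The Dok3 WT libraries gave 1.95, 7.44 and 101 and the KO libraries 0.429, 6.59 and 105. The 3 highest libraries (a Nckap1l WT at 164, a Gpsm3 KO at 145 and a Gpsm3 WT at 144 CPM) ranked 5, 6 and 8 by neutrophil score and had at most 1.43 CPM of Krt1. The library with the highest neutrophil score of all, a Dok3 KO, had only 10.7 CPM of Il1rl1, and the next, a Dok3 WT, had 101.

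Msln, the mesothelin gene, had 0 counts in 2 Dock2 libraries, 1.10 CPM at the median and 29.8 at the highest. At these levels counting error is large: 3 counts or fewer were read in 6 Nckap1l, 5 Dock2, 1 Gpsm3 and 5 Dok3 libraries. The Nckap1l WT libraries gave 0.0622, 0.574 and 18.2 CPM (lowest, median, highest) and the KO libraries 0.0580, 0.868 and 8.84. The Dock2 WT libraries gave 0, 1.12 and 9.15 and the KO libraries 0.122, 1.18 and 7.72. The genotypes overlap in both lines. The Gpsm3 WT libraries gave 0.250, 1.06 and 26.6 and the KO libraries 0.0597, 2.13 and 11.2. The Dok3 WT libraries gave 0.0663, 0.8001 and 29.8 and the KO libraries 0.133, 1.26 and 13.5. The 3 highest libraries, a Dok3, a Gpsm3 and a Nckap1l WT mouse, ranked 14, 8 and 5 by neutrophil score. In the Nckap1l line the median was 0.260, 5.30 and 0.519 CPM in the 3 runs of sample numbers, a wider step than between its genotypes.

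Anxa1 and Clu, an annexin and a chaperone, differed in where they were high. Anxa1 had 130 CPM in the lowest library, 233 at the median and 1381 in the highest. The Nckap1l WT libraries gave 141, 479 and 1247 CPM (lowest, median, highest) and the KO libraries 135, 307 and 1372, the Dock2 WT libraries 143, 212 and 996 and the KO libraries 138, 214 and 833. The higher medians belong to the line with the most squamous-positive libraries. The Gpsm3 WT libraries gave 144, 190 and 645 and the KO libraries 151, 237 and 570, and the Dok3 WT libraries 159, 296 and 1268 and the KO libraries 130, 222 and 1381. Clu had 21.8 CPM in the lowest library, 58.6 at the median and 193 in the highest. Its line medians were 51.0 CPM in Nckap1l, 51.6 in Dock2, 51.3 in Gpsm3 and 80.7 in Dok3. The Nckap1l WT libraries gave 30.003, 59.1 and 167 CPM and the KO libraries 24.6, 47.3 and 87.7, and the Dock2 WT libraries 27.1, 64.8 and 122 and the KO libraries 29.8, 46.4 and 76.3. In both lines the KO range ended below the WT range. The Gpsm3 WT libraries gave 21.8, 51.3 and 89.5 and the KO libraries 22.3, 50.2 and 133, and the Dok3 WT libraries 35.6, 87.7 and 173 and the KO libraries 33.0, 79.1 and 193. The highest Clu library, a Dok3 KO, ranked 122 of 160 by neutrophil score.

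The single highest library of Ccn1 and that of Ccn2, the secreted YAP targets, were WT mice. KO mice stood at place 4 for Ccn1 (Nckap1l, 75.2 CPM) and place 3 for Ccn2 (Dok3, 86.3 CPM). Ccn1 had 2.77 CPM in the lowest library, 13.7 at the median and 121 in the highest, and its group medians ran from 11.0 (Gpsm3 KO) to 18.3 CPM (Nckap1l KO). The 3 highest libraries were 2 Nckap1l WT mice at 121 and 115 CPM and a Dock2 WT mouse at 114, whereas no Gpsm3 library exceeded 34.6. Ccn2 had 8.94 CPM in the lowest library, 27.7 at the median and 153 in the highest, the same Dock2 WT mouse. Its line medians were 39.1 CPM in Nckap1l, 30.6 in Dock2, 26.3 in Gpsm3 and 23.2 in Dok3. The Dok3 KO mouse with the lowest neutrophil score of all libraries was also the lowest for Il1rl1 (0.429 CPM) and Ccn2 (8.94) and had 3.36 CPM of Ccn1.

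Anxa1 was the one gene of the 7 that was higher in all 34 squamous-positive libraries than in the median of the other libraries of their line. In 15 of the 34 it exceeded every other library of the line, and the ratio of medians was 2.42 in Nckap1l, 2.51 in Dock2, 2.70 in Gpsm3 and 2.80 in Dok3. Over all lines the squamous-positive libraries had 296, 578 and 1381 CPM of Anxa1 (lowest, median, highest) and the others 130, 211 and 924, and the 5 highest Anxa1 libraries all had at least 571 CPM of Krt1. Il1rl1 was above the median of the other libraries in 29 of the 34, but above their highest in only 1. The counts above the median were 23 for Ccn1, 19 for Ly6a, 16 for Ccn2, 11 for Clu and 10 for Msln. Msln was lower in squamous-positive libraries, with ratios of medians of 0.208, 0.277, 0.741 and 0.520 in Nckap1l, Dock2, Gpsm3 and Dok3. These counts describe libraries set apart by Krt1 and carry no test. The neutrophil genes moved with the same split: the 10 genes summed to a median of 31.0 CPM in squamous-positive and 24.3 CPM in other Nckap1l libraries, and to 103 and 12.96 CPM in Dok3. Of the 10, S100a8 and Cxcr2 also rose with the squamous gene score described below in all 4 lines. The part of squamous tissue in these sums was not tested.

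**Figure D2:**
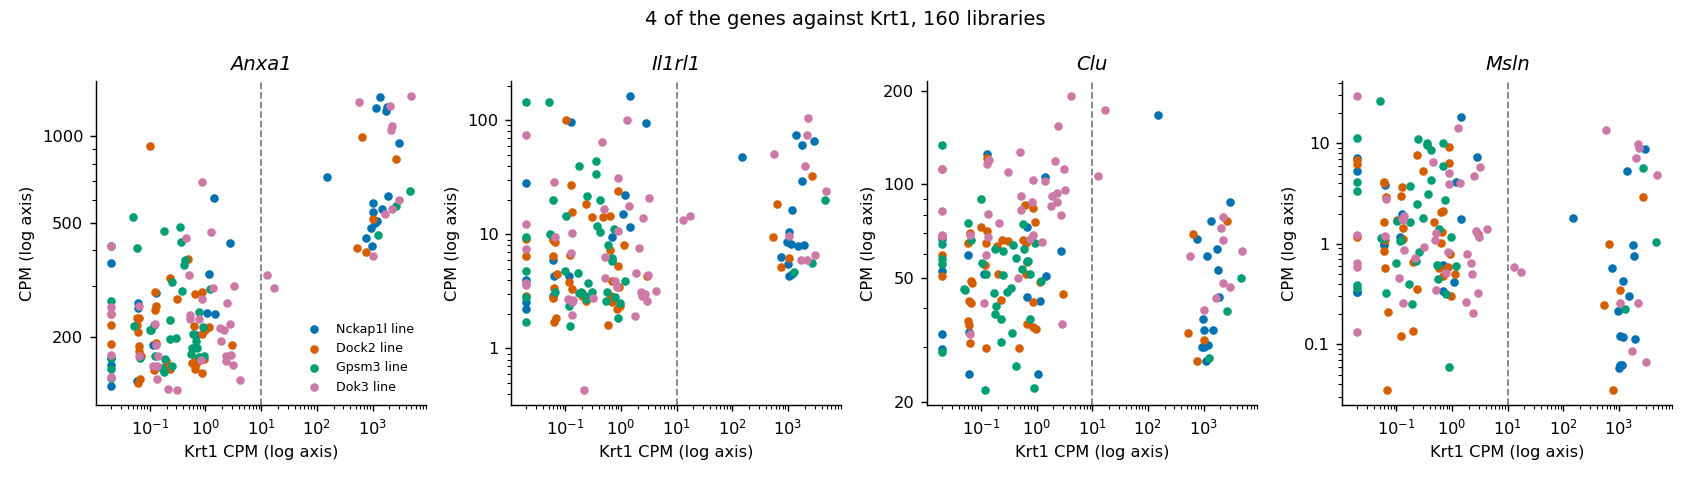
CPM of Anxa1, Il1rl1, Clu and Msln against CPM of Krt1 in each library, both on log axes, with a dashed line at 10 CPM of Krt1 and libraries without a Krt1 count drawn at the left edge. Anxa1 lies at 296 to 1381 CPM right of the line, and the highest Il1rl1 and Msln libraries lie left of it.

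To set inflammation apart from squamous tissue, the genes were fitted against both at once. The neutrophil score of a library is the mean log2 CPM (prior count 2) of 10 neutrophil genes (S100a8, S100a9, Il1b, Cxcr2, Csf3r, Trem1, Clec4d, Retnlg, Mmp8 and Cxcl2), and the keratinocyte score is that of 12 squamous genes without Krt1. Neither list holds any of the 7 genes. The neutrophil score ran from -1.96 to 8.95 and the keratinocyte score from -1.18 to 9.36. A slope is the log2 change of a gene for a rise of 1 in the score, estimated with edgeR's quasi-likelihood test beside genotype, the other score and, where a line held both sexes, sex. P-values were adjusted over all genes tested in the line (17560 to 17947), and all 7 genes passed the filter on low counts in every line.

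With the neutrophil score, 7 of the 7 genes rose in the Nckap1l line, 6 in Dock2, 5 in Gpsm3 and 6 in Dok3, and none fell. Over all genes tested, the slope was past the threshold in 52.1% (Nckap1l), 58.2% (Dock2), 58.6% (Gpsm3) and 59.6% (Dok3), and rises alone made up 25.1%, 28.6%, 29.4% and 29.2%. A call by itself is therefore no mark of these genes, and the size of the slope is what sets Il1rl1 and Msln apart. The median slope of the 7 genes was 0.26, 0.25, 0.19 and 0.18, compared with -0.00 for all genes in each line.

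Il1rl1 rose most steeply of the 7 genes in Nckap1l, Dock2 and Gpsm3 and next to Msln in Dok3, with slopes of 0.66 ± 0.04 in Nckap1l (SE, adjusted p = 6.4e-15, edgeR), 0.58 ± 0.03 in Dock2 (adjusted p = 6.8e-19), 0.64 ± 0.03 in Gpsm3 (adjusted p = 2.6e-21) and 0.55 ± 0.04 in Dok3 (adjusted p = 5.8e-18). Among all genes tested these were the slopes of rank 55, 52, 33 and 63. Msln had 0.51 ± 0.09 (adjusted p = 3.1e-05), 0.48 ± 0.10 (0.00013), 0.49 ± 0.07 (1.4e-07) and 0.56 ± 0.06 (2.5e-10) in the same order of lines, at ranks 107, 84, 70 and 60. Both genes thus stood among the steepest in every line although they were the least abundant of the 7. With a score of fibroblast genes also in the fit, Il1rl1 was still called in 4 of 4 lines (0.51 to 0.58), but Msln only in Gpsm3 (0.43), with 0.31, 0.24 and 0.34 in Nckap1l, Dock2 and Dok3 (adjusted p = 0.17, 0.169 and 0.0657).

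Ly6a rose by 0.32 ± 0.04, 0.25 ± 0.04, 0.34 ± 0.04 and 0.25 ± 0.03 per unit of the score in Nckap1l, Dock2, Gpsm3 and Dok3, the largest adjusted p being 7.2e-07 in Dock2. Anxa1 rose by 0.19 ± 0.02, 0.22 ± 0.02, 0.18 ± 0.02 and 0.18 ± 0.01, with adjusted p-values no larger than 3.4e-10. The inflammation-linked rise of Anxa1 therefore remained with the keratinocyte score in the same fit. Ccn1 rose by 0.26 ± 0.07 (adjusted p = 0.0020), 0.29 ± 0.04 (6.1e-07), 0.19 ± 0.04 (2.4e-05) and 0.18 ± 0.03 (7.2e-06). Ccn2 rose less, by 0.09 ± 0.04 in Nckap1l (adjusted p = 0.0409), 0.18 ± 0.03 in Dock2 (1.6e-05) and 0.09 ± 0.02 in Dok3 (0.000455), and its slope in Gpsm3 was 0.04 ± 0.04 (adjusted p = 0.392). Without the 2 libraries of each line farthest from its median score, Ccn2 was called in 0 of the 4 lines (slopes 0.02 to 0.08). With the run of sample numbers in the fit, Ccn2 was called in 1 of the 3 lines with more than 1 run. Clu rose in Nckap1l alone when all libraries of a line were fitted (edgeR), with a slope of 0.16 ± 0.04 (adjusted p = 0.000565). It had 0.05 ± 0.03, 0.03 ± 0.03 and 0.01 ± 0.03 in Dock2, Gpsm3 and Dok3 (adjusted p = 0.132, 0.388 and 0.853). Without the squamous-positive libraries the Nckap1l slope of Clu was 0.09 ± 0.05 (adjusted p = 0.138), and Clu was called in 0 of the 4 lines.

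**Figure D3:**
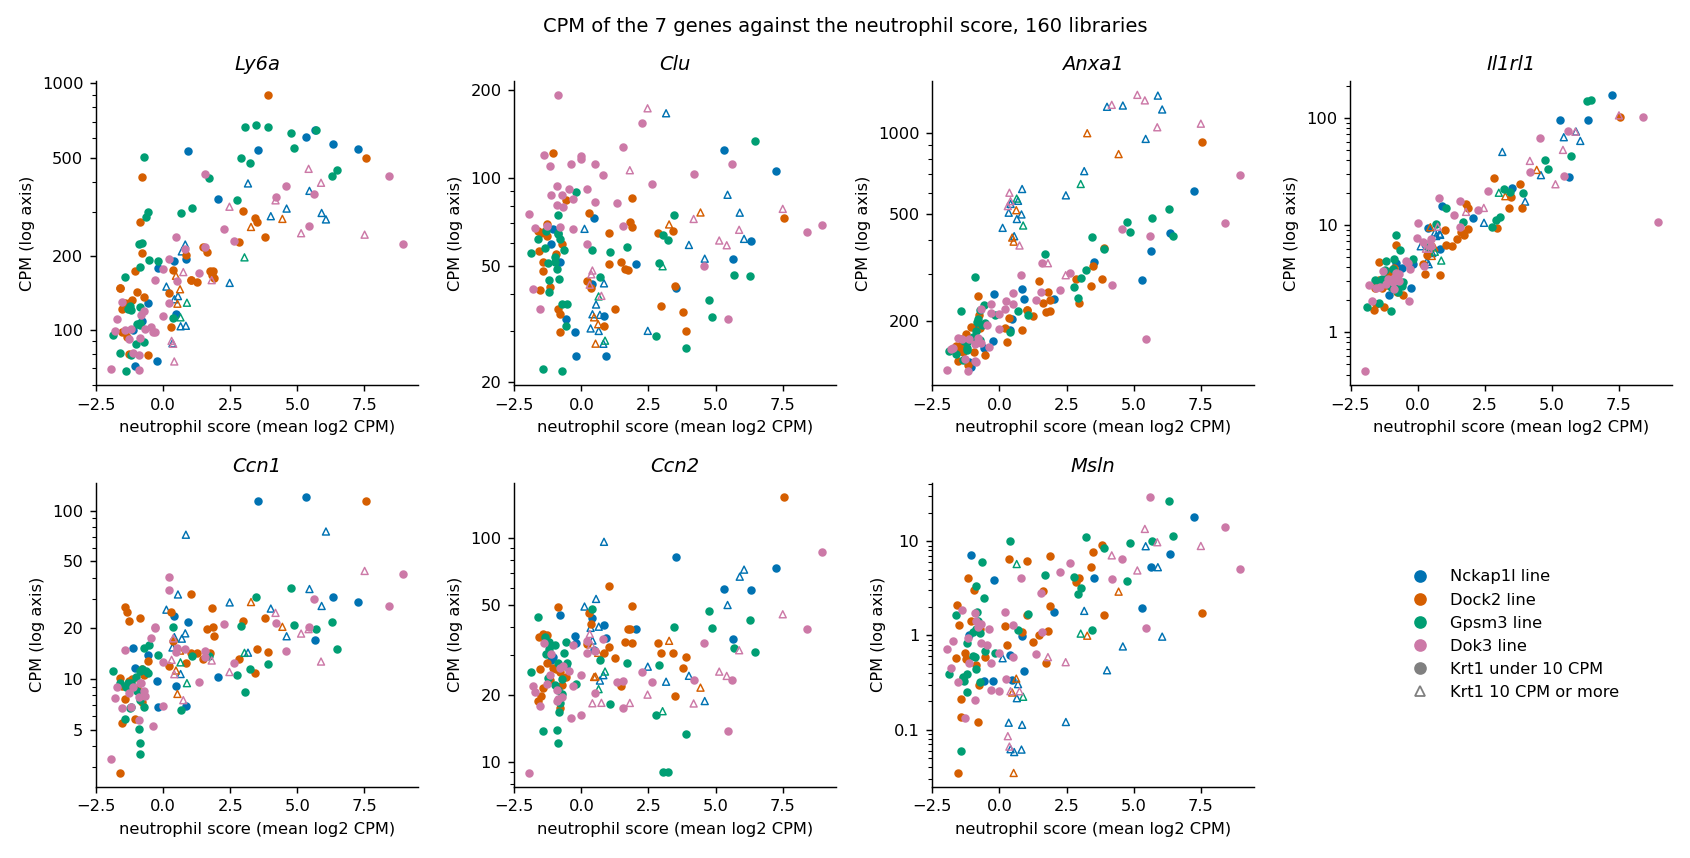
CPM of the 7 genes on a log axis against the neutrophil score of the library (mean log2 CPM of 10 genes), with a colour for each line and triangles for libraries with 10 CPM or more of Krt1. Il1rl1 and Msln climb the most over the range of the score, -1.96 to 8.95, and Clu has no common trend.

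The neutrophil slope of Clu differed between the 4 lines in a fit of all 160 libraries (adjusted p = 0.0202, edgeR), a call made for 19% of all genes. It was not called when the keratinocyte slope was let differ between lines (adjusted p = 0.0520). For the other 6 genes the adjusted p for a difference between lines was 0.155 to 0.676. Between KO and WT mice of a line, no slope of the 7 genes differed in edgeR's test, and 0% of all genes did. At an unadjusted p of 0.05, 5 of the 28 slope differences passed, where 4.69%, 6.47%, 4.03% and 3.94% of all genes did in Nckap1l, Dock2, Gpsm3 and Dok3, all 5 lower in KO: Il1rl1 in Dock2 (-0.18 ± 0.07, p = 0.00810) and Gpsm3 (-0.13 ± 0.06, p = 0.0400), Ccn2 in Dock2 (-0.18 ± 0.07, p = 0.0150), and Msln in Gpsm3 (-0.39 ± 0.15, p = 0.0114) and Dok3 (-0.28 ± 0.12, p = 0.0270).

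With the squamous-positive libraries left out, Il1rl1, Ly6a and Anxa1 still rose with the neutrophil score in 4 of 4 lines and Msln, Ccn1 and Ccn2 in 3 each. Within the 3 runs of sample numbers of the Nckap1l line (14, 9 and 8 libraries), Il1rl1 had slopes of 0.59 ± 0.06, 0.60 ± 0.05 and 1.05 ± 0.39, the last not past the threshold (adjusted p = 0.340, edgeR). Anxa1 had 0.28 ± 0.02, 0.13 ± 0.04 and 0.14 ± 0.11, and was past it only in the first. Clu had 0.18 ± 0.04 in the first run (adjusted p = 0.00877), 0.10 in the second and -0.54 in the third. In the third run, no gene of the 7 was called. With a score of 6 genes of regulatory T cells and type 2 innate lymphoid cells in the fit (such as Foxp3 and Gata3), cells that carry ST2, the slope of Il1rl1 was 0.51 in Nckap1l (adjusted p = 0.000869) and 0.56 in Dock2 (6.3e-09). Ly6a then had 0.10 in both lines (adjusted p = 0.694 and 0.267), and of the 7 genes only Il1rl1 and Anxa1 in Nckap1l and these with Msln in Dock2 were still called. In Gpsm3 and Dok3 Ly6a was still called beside this score, and its highest slope of the 4 lines was 0.42. Il1rl1 was called in 4 of 4 lines. The share of all genes called was not computed for the fits of this paragraph, so fewer calls there are no mark of these 7 genes.

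Anxa1 rose with the keratinocyte score in all 4 lines, and Msln fell with it in Nckap1l and Dock2. The slope of Anxa1 on the keratinocyte score was 0.17 ± 0.01 in Nckap1l (adjusted p = 2.0e-13, edgeR), 0.16 ± 0.01 in Dock2 (2.5e-12), 0.13 ± 0.01 in Gpsm3 (2.6e-09) and 0.18 ± 0.01 in Dok3 (2.0e-16). For Msln it was below 0 in Nckap1l (-0.22 ± 0.08, adjusted p = 0.0144) and Dock2 (-0.25 ± 0.09, 0.0209), and had -0.01 ± 0.08 in Gpsm3 (0.955) and -0.08 ± 0.06 in Dok3 (0.239). Ly6a fell in Nckap1l (-0.07 ± 0.03, adjusted p = 0.0415) and Clu in Dok3 (-0.06 ± 0.03, 0.0464). In all, 3, 2, 1 and 2 of the 7 genes were called in Nckap1l, Dock2, Gpsm3 and Dok3, where 50.3%, 39.8%, 30.8% and 52.3% of all genes were. With the run of sample numbers in the fit, Msln was called in none of the 3 lines with more than 1 run (slopes -0.07 to 0.01). The slopes of Il1rl1 were between -0.03 and 0.03, those of Ccn1 between -0.04 and -0.01 and those of Ccn2 between -0.06 and -0.00, and none was called. The rise of Il1rl1 with the neutrophil score was thus measured beside a keratinocyte slope near 0, and Anxa1 moved with both scores.

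**Figure D4:**
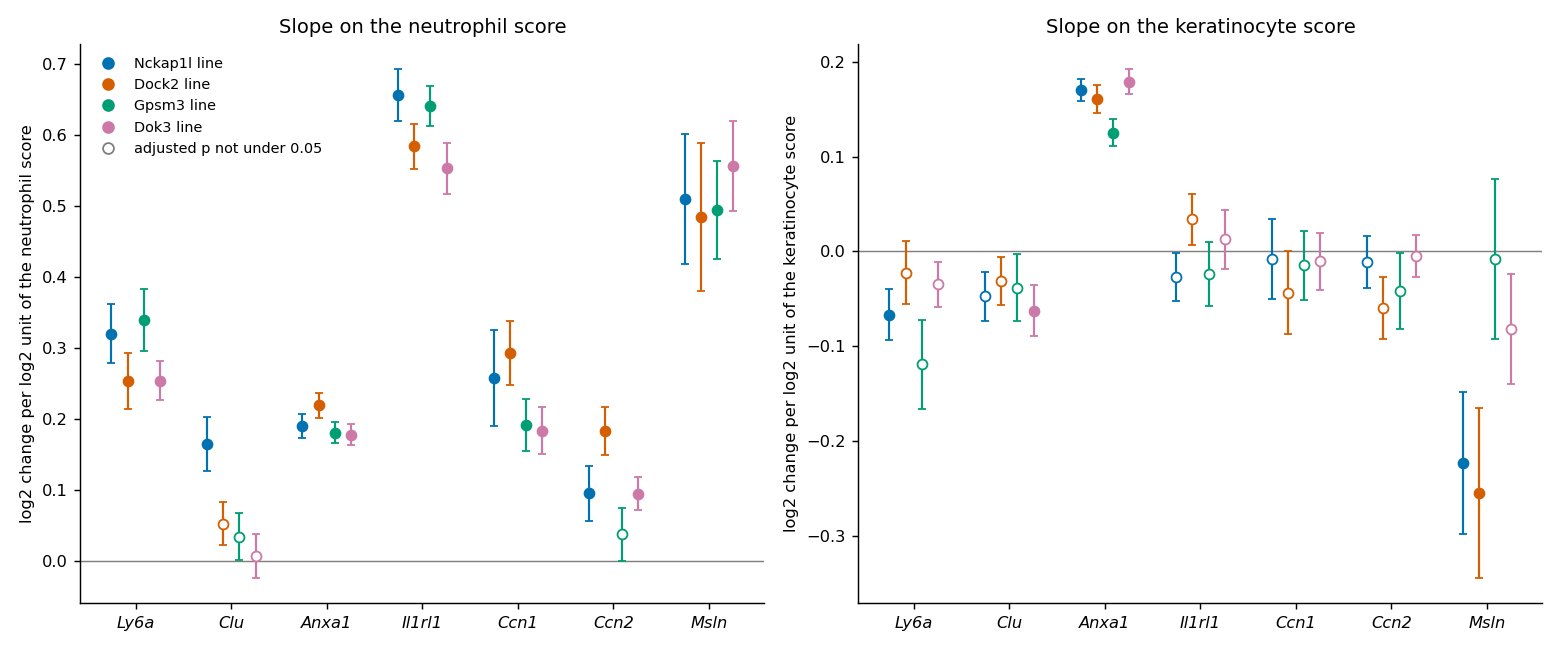
Slopes of the 7 genes on the neutrophil score and on the keratinocyte score (log2 change per unit of score, from 1 fit per line), with bars for the SE; open symbols have an adjusted p that is not under 0.05. Il1rl1 and Msln have the steepest neutrophil slopes, 0.48 to 0.66, and Anxa1 is the one gene with keratinocyte slopes above 0.1, 0.13 to 0.18.

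4 further scores were added to the same fit, 1 at a time, each set against 1 gene or a pair as a partner. All of these fits were chosen after the data had been seen, so they are no test of a prior idea. Ly6a is an interferon-inducible gene, and it rose with a score of 8 interferon-response genes (such as Irf1, Gbp2 and Cxcl9) in all 4 lines, by 0.57 ± 0.10 (adjusted p = 0.00087, edgeR), 0.59 ± 0.09, 0.47 ± 0.10 (0.0025) and 0.45 ± 0.07 in Nckap1l, Dock2, Gpsm3 and Dok3. The interferon slope was called for 1.69%, 4.82%, 3.31% and 2.66% of all genes. With that score in the fit the neutrophil slope of Ly6a was 0.18, 0.14, 0.22 and 0.16, still called in each line. Ccn1 is an immediate early gene, and it rose with a score of 10 others (such as Fos, Egr1 and Dusp1) by 1.24 ± 0.15, 1.40 ± 0.23, 0.84 ± 0.21 and 1.03 ± 0.13, called in all 4 lines where 0.596%, 1.71%, 7.79% and 0.494% of genes were. Its neutrophil slope beside that score was -0.01 (adjusted p = 0.914), 0.11 (0.0536), 0.13 (0.00137) and 0.06 (0.0584), called in Gpsm3 alone. Ccn2 rose with the immediate early score in Nckap1l (0.60 ± 0.14, adjusted p = 0.0394) and Dock2 (0.81 ± 0.20, 0.0208) and had 0.32 ± 0.26 in Gpsm3 (0.459) and 0.45 ± 0.14 in Dok3 (0.153). The 3 libraries highest in Ccn1 ranked 1, 2 and 6 of 160 by this score.

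Clu was set against a score of 8 B-cell and follicle genes (such as Ms4a1, Cd79a, Cr2 and Cxcl13). That list was made after the genes most like Clu in these libraries had been seen, so its values are a description with no test. The slopes were 0.32 ± 0.06 in Nckap1l, 0.56 ± 0.05 in Dock2, 0.51 ± 0.09 in Gpsm3 and 0.45 ± 0.07 in Dok3 (SE), and the neutrophil slope of Clu beside it was 0.04, -0.02, -0.10 and -0.07. Msln rose with a score of 6 mesothelial genes (Upk3b, Upk1b, Lrrn4, Wt1, Gpm6a and Krt19, the last also a gene of gut epithelium) by 1.499 ± 0.15 in Dock2 (adjusted p = 5.4e-09) and 1.37 ± 0.19 in Gpsm3 (0.000128). The values in Nckap1l and Dok3 were 1.53 ± 0.44 (0.566) and 1.04 ± 0.24 (0.0707), and in Dok3 limma-voom called it (1.34, adjusted p = 0.0026). In edgeR's test 0%, 0.0567%, 0.0513% and 0.0511% of all genes were called on this score. The neutrophil slope of Msln beside it was 0.51, 0.22, 0.45 and 0.34, called in all 4 lines.

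**Figure D5:**
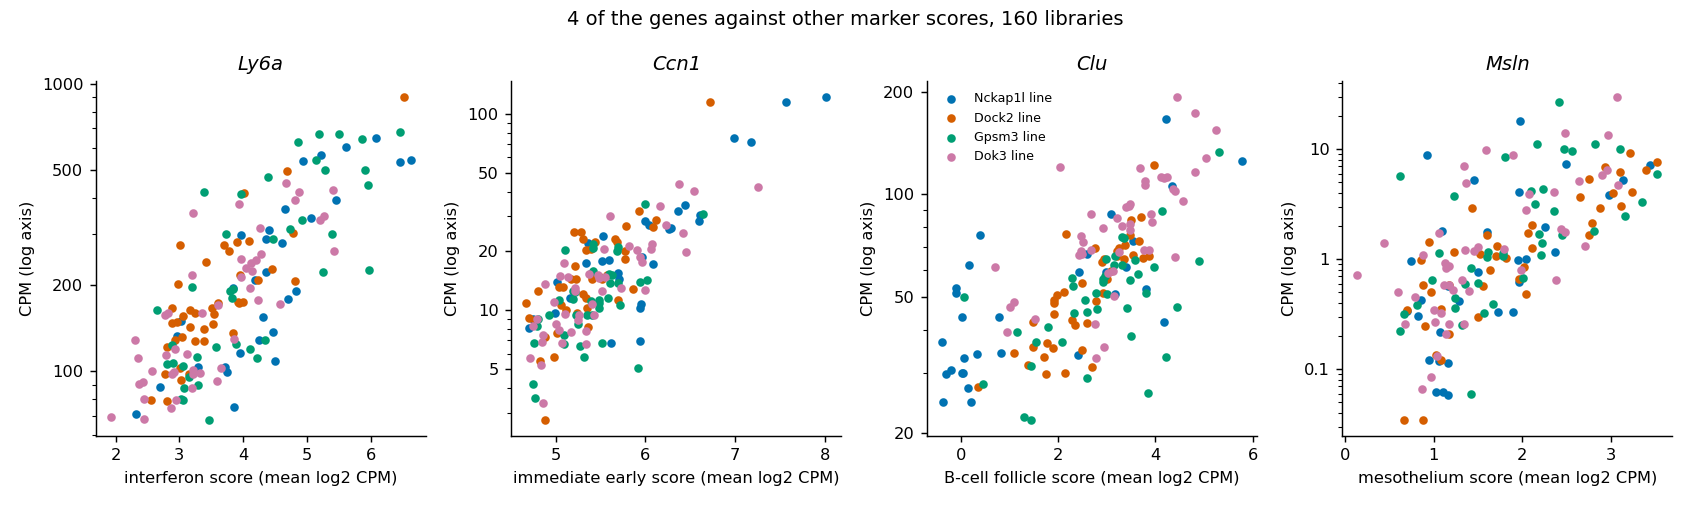
CPM of Ly6a, Ccn1, Clu and Msln on a log axis against the score of the gene list named on each x axis (mean log2 CPM), with a colour for each line. All 4 genes climb with their score. For Msln the climb is spread over the widest range of levels, 0 to 29.8 CPM. The list set against Clu was made after the genes most like Clu had been seen.

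A fibroblast score (6 genes such as Col1a1 and Pdgfra) rose together with the neutrophil score. The Spearman correlation was 0.7 over the 31 Nckap1l, 0.75 over the 42 Dock2, 0.68 over the 40 Gpsm3 and 0.82 over the 47 Dok3 libraries. Both scores share library and depth. Beside both scores, the fibroblast slope was called for Ccn2 in Gpsm3 (0.83 ± 0.27, adjusted p = 0.0236, edgeR) and Dok3 (1.08 ± 0.18, 4.1e-05), for Il1rl1 in Nckap1l (0.86 ± 0.28, 0.0351) and for Clu in Gpsm3 (0.87 ± 0.25, 0.00787). It was negative for Anxa1 in Dock2 (-0.55 ± 0.15, adjusted p = 0.00892) and Ly6a in Gpsm3 (-0.87 ± 0.32, 0.0447). Over all genes the fibroblast slope was called in 14.6%, 12.9%, 24.8% and 14% of Nckap1l, Dock2, Gpsm3 and Dok3. Mast cells carry ST2, the receptor that Il1rl1 encodes. The slope of Il1rl1 on a score of 7 mast cell genes (such as Cpa3 and Kit) was 0.21 ± 0.12, 0.10 ± 0.17, -0.14 ± 0.20 and 0.67 ± 0.19 (adjusted p = 0.684, 0.831, 0.848 and 0.216, edgeR). In Dok3 limma-voom called this slope (1.06, adjusted p = 0.0271).

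Other genes known from the repair program also moved with the neutrophil score, as did genes of lists with no link to it. Of a list of 20 fetal-like and regenerative genes, 18 passed the filter in Nckap1l and 17 in each other line. With the neutrophil score 14 rose in Nckap1l, 16 in Dock2, 13 in Gpsm3 and 12 in Dok3, and 1 fell, in Nckap1l. Over all genes 25.1%, 28.6%, 29.4% and 29.2% rose and 27%, 29.6%, 29.3% and 30.4% fell in the same order of lines. The median slopes of the list were 0.15, 0.27, 0.15 and 0.12. The 11 that rose in all 4 lines included Anxa2, Anxa5, Gja1, Il33, Plaur, S100a11 and Spp1. Such a rise in all 4 lines was not particular to this list. It was also seen for 5 of 6 fibroblast and 5 of 8 interferon-response genes, but for 0 of 7 pan-epithelial and 0 of 6 smooth muscle genes. The share over all genes was not computed. Il33, the ligand of the Il1rl1 receptor, had slopes of 0.53, 0.40, 0.42 and 0.28 in Nckap1l, Dock2, Gpsm3 and Dok3. Ligand and receptor thus rose with the same score in every line. Plaur, the urokinase receptor, had 0.38, 0.49, 0.36 and 0.42, and S100a11 had 0.23, 0.29, 0.28 and 0.26. Spp1 (osteopontin), the least abundant of the list, had 0.34, 0.62, 0.64 and 0.69. S100a6, the most abundant, had -0.05 in Nckap1l, where it fell (adjusted p = 0.00458, edgeR), and 0.02, -0.02 and -0.02 elsewhere. With the keratinocyte score 10, 9, 5 and 9 of the list rose and 1 fell in each line, where 24.5%, 20.5%, 17.4% and 25.6% of all genes rose.

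The YAP and TEAD pathway genes moved less. All 22 on the list passed the filter. With the neutrophil score 12, 14, 9 and 12 rose and 1, 3, 2 and 3 fell in Nckap1l, Dock2, Gpsm3 and Dok3. Over all genes 25.1%, 28.6%, 29.4% and 29.2% rose and 27%, 29.6%, 29.3% and 30.4% fell. The median slopes of the list were 0.05, 0.06, 0.04 and 0.06. The 8 that rose in all 4 lines were Ajuba, Amotl2, Ankrd1, Ccdc80, Myof, Tead1, Tead2 and Tead4, and the 1 that fell in all 4 was Crim1. Tead4, a DNA-binding partner of YAP, had 0.16, 0.35, 0.27 and 0.14. Ankrd1, a YAP target, had 0.15, 0.45, 0.30 and 0.24, and Myof, which encodes the membrane-repair protein myoferlin, 0.11, 0.14, 0.12 and 0.11. Crim1 had -0.13, -0.14, -0.20 and -0.15. With the keratinocyte score 16, 12, 12 and 15 of the 22 rose and 2, 1, 1 and 2 fell, where 24.5%, 20.5%, 17.4% and 25.6% of all genes rose. Genes of the resting colon epithelium (12, such as Lgr5, Car1 and Aqp8) mostly fell with the neutrophil score: 8, 9, 7 and 8 fell and 1, 2, 1 and 0 rose, where 27%, 29.6%, 29.3% and 30.4% of all genes fell.

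The genotype comparison asks whether the repair genes differed between KO and WT mice of a line, over DSS-treated and untreated mice together. How treatment was split between the genotypes is not known, and treatment could not be put in the fit. An effect of genotype under DSS alone was therefore not tested. The targeted genes come first as a check on the labels. Gpsm3 fell by 2.06 ± 0.28 on the log2 scale in Gpsm3 KO mice (0.556 against 3.15 CPM at the median, adjusted p = 0.000100, edgeR). Nckap1l had -1.09 ± 0.41 (14.8 against 27.6 CPM, adjusted p = 1.00), Dock2 -0.62 ± 0.17 (22.4 against 35.7 CPM, 0.210) and Dok3 -0.48 ± 0.39 (3.30 against 3.67 CPM, 1.00) in their own lines. The KO and WT ranges of the targeted gene overlapped in all 4 lines, and the highest Dok3 level of the Dok3 line was that of a KO library (38.0 CPM against 26.03 in the highest WT). Loss of the targeted transcript was thus measured past the threshold in the Gpsm3 line only, and the genotype comparisons of the other lines rest on the labels.

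None of the 7 genes differed between KO and WT in any line by edgeR, 0 of 28 tests, where 0%, 0.034%, 0.00569% and 0% of all genes did in Nckap1l, Dock2, Gpsm3 and Dok3. At an unadjusted p of 0.05, 1 of the 28 passed: Clu in Dock2, with -0.28 ± 0.13 (p = 0.0287, adjusted p = 0.906). At that level 4.5%, 5.1%, 4.86% and 2.19% of all genes passed in the 4 lines. DESeq2 called 0 of the 27 it gave an adjusted p for (2 unadjusted) and limma-voom 0 (1 unadjusted). The values for Il1rl1 were -0.63 ± 0.64, -0.32 ± 0.45, 0.45 ± 0.57 and -0.70 ± 0.50, and for Msln -0.13 ± 0.70, -0.02 ± 0.48, -0.09 ± 0.55 and -0.75 ± 0.54. The errors of these differences were the widest of the 7 genes. Those for Ly6a were -0.20 ± 0.36, 0.45 ± 0.23, 0.46 ± 0.32 and -0.28 ± 0.23, and for Anxa1 0.24 ± 0.34, -0.21 ± 0.25, 0.27 ± 0.20 and -0.17 ± 0.31. Clu had -0.33 ± 0.25, -0.28 ± 0.13, 0.10 ± 0.16 and -0.00 ± 0.16. Ccn1 had -0.54 ± 0.39, -0.26 ± 0.30, 0.24 ± 0.22 and 0.01 ± 0.24, and Ccn2 -0.21 ± 0.22, -0.26 ± 0.20, 0.08 ± 0.18 and 0.02 ± 0.16. The genotype effect did not pass a test of a difference between lines for any of the 7 (unadjusted p = 0.0987 to 0.765, edgeR), while it did for 0.69% of all genes.

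Without the squamous-positive libraries 0 of the 28 genotype tests passed and 8 did at an unadjusted p of 0.05 (5 in Nckap1l, 1 in Dock2 and 2 in Dok3), where 13.4%, 4.95%, 7.67% and 3.1% of all genes did in Nckap1l, Dock2, Gpsm3 and Dok3. The largest difference was in the Nckap1l line (9 KO, 7 WT), where Il1rl1 had -2.73 ± 0.83 and Ccn1 -1.64 ± 0.57 (adjusted p = 0.360 for each, edgeR). There Il1rl1 had 2.89, 21.9 and 164 CPM in WT (lowest, median, highest) and 2.23, 4.36 and 28.2 in KO. Ccn1 had 6.96, 28.5 and 121 CPM in WT and 6.78, 11.6 and 23.7 in KO. The groups overlapped for both genes. Over all Nckap1l libraries with both scores in the fit, Il1rl1 had -0.15 ± 0.20. The smallest adjusted p without the squamous-positive libraries was 0.189, for Clu in Dock2 (-0.42 ± 0.12). Of the 8 B-cell follicle genes, 1 was lower in Dock2 KO by edgeR and 0 in Nckap1l KO, and 7 had an unadjusted p under 0.05 in each, with a median of -0.85 in Dock2 and -2.21 in Nckap1l. The median follicle score was 3.15 in WT and 2.06 in KO Dock2 mice. The part of follicles in the Clu values was not tested, since that list was made after seeing Clu.

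Clu was higher in females than in males of the Dock2 line, by 0.47 ± 0.12 on the log2 scale (adjusted p = 0.0135, edgeR), the 1 gene of the 7 called there, where 9.75% of all genes were. The WT females had 48.9, 68.8 and 122 CPM (lowest, median, highest) and the WT males 27.1, 41.8 and 72.9. The KO females had 34.3, 49.4 and 76.3 CPM and the KO males 29.8, 43.6 and 55.01. Females and males overlapped in both genotypes, with the higher median in females. Most Dock2 males had lower sample numbers than the females, and sample order was not in the fit. The difference was 0.53 ± 0.12 with both scores in the fit (adjusted p = 0.0031) and 0.33 ± 0.12 without the squamous-positive libraries (0.0523). In that last fit Anxa1 (-0.53 ± 0.18, adjusted p = 0.0352) and Il1rl1 (-1.35 ± 0.44, 0.0301) were lower in females, where 18.3% of all genes were called. In the fit of all Dock2 libraries the 8 neutrophil genes tested had a median of -1.47 in females, with 0 called by edgeR and 5 at an unadjusted p under 0.05, which 25.6% of all genes had. In Nckap1l 0 of the 7 genes differed between the sexes in edgeR's test or limma-voom (0.178% of all genes did in edgeR's). Msln alone had an unadjusted p under 0.05 there (-1.61 ± 0.75, p = 0.0406, adjusted p = 0.297, edgeR), and Clu had 0.33 ± 0.26 (adjusted p = 0.538). The second run of Nckap1l sample numbers held males only and had the highest Msln median of the runs. The run was not in this fit, so sex and run cannot be fully told apart there.

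The genes whose pattern over the 160 libraries was most like each of the 7 were different for each. Likeness was the Spearman correlation of log2 CPM after the mean of each line was taken off, over 14518 genes with a mean log2 CPM of at least 1. These are descriptions, since all genes of a library share its depth, its inflammation and its cell makeup. Il1rl1 was most like Il1b (0.915), the IL-1β gene, Il4ra (0.908), a chain of the IL-4 receptor, and Csf3r (0.902), the G-CSF receptor. Il1b and Csf3r are genes of the neutrophil score. Anxa1 was most like Sphk1 (0.909), Krt13 (0.906), a keratin of non-cornified squamous epithelium, and Acsl4 (0.905). Ly6a was most like Trim15 (0.894), Gda (0.894) and Ripk3 (0.888), a kinase of necroptosis. Clu was most like Mfge8 (0.762), a gene of follicular dendritic cells, Hvcn1 (0.753), a proton channel of B cells, and Blk (0.742), a B-cell kinase. Ccn1 was most like Ptgs2 (0.772), which encodes COX-2, Gm26586 (0.752) and Dusp1 (0.716). Ccn2 was most like Ccn1 (0.564), Akap12 (0.563) and Dbn1 (0.549), and Msln like Ms4a6c (0.736), Gusb (0.735) and Cd300c2 (0.724), none of which is on the mesothelial list.

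Among the 7 genes themselves, Ly6a and Il1rl1 were the most alike (0.78 over 160 libraries), followed by Anxa1 and Il1rl1 (0.73). Ccn1 and Ccn2, the pair of YAP targets, had 0.56. Il1rl1 and Ccn1 had 0.58, Ly6a and Anxa1 0.57, Il1rl1 and Msln 0.57, and Ly6a and Msln 0.56. Clu stood apart, with -0.09 to 0.25 against each of the other 6.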

How the data were processed

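Total RNA of 160 distal colon samples was ribosome-depleted, made into stranded libraries and sequenced as single 100-base reads by the authors. STAR alignment to mm10 was followed by gene counting with featureCounts from Subread (versions not given in the sources used here), and the deposited tables hold the raw count of 39179 Ensembl genes per library, without normalization. Symbols and positions came from an annotation of GRCm38, the same build, for 37693 genes (96.2%) that held 99.67% of counts. Groups are the line and genotype of the labels. CPM is the count scaled to a library total of 1000000. Counts of each line were filtered with filterByExpr, scaled by TMM (factors 0.901 to 1.08) and tested with edgeR 4.0.16 in R 4.3.3 (quasi-likelihood, Benjamini-Hochberg, threshold 0.05), and the fits of Nckap1l and Dock2 also held sex. Nothing in the labels gives litter or cage, so p-values measure the spread between mice as sampled. Runs of sample numbers within a line served as blocks. The 7 genes and the gene lists were chosen with earlier results of these data known. Named genes were the members, the knocked-out genes, for each of the fetal-like and YAP lists the 3 genes with the smallest adjusted p for the neutrophil slope in Gpsm3 and the genes of highest and lowest level, and for each member the 3 genes most like it. No library pair of a group differed by less than sampling noise. Alternatives included limma-voom (limma 3.58.1), which the study used, DESeq2 1.42.0, other filters, covariates, scores and subsets of libraries. Scripts were tested on simulated data. Promoters came from RefSeq (GRCm38.p6).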

Additional observations from a re-analysis of the deposited data

Results flagged for a closer look

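The slope of Clu on the neutrophil score differed between the 4 lines (adjusted p = 0.0202, edgeR's test of the interaction of score and line over 160 libraries), with 0.16 ± 0.04 in Nckap1l and 0.05 ± 0.03, 0.03 ± 0.03 and 0.01 ± 0.03 in Dock2, Gpsm3 and Dok3. The slopes of the other 6 genes did not pass this test. The adjusted p was 0.0520 with a keratinocyte slope for each line, a fit chosen after seeing the data. Without squamous-positive libraries the Nckap1l slope was 0.09 ± 0.05 and was not called (adjusted p = 0.138). Groups were too large for a search for outlying libraries by the gap rule used for 4 to 10 samples.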

How the results depend on the processing

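Each group is 1 set of mice, and treatment, which the labels do not give, is only approximated by the neutrophil score. The score and the genes come from the same libraries, and low counts limit Msln. No paired analysis was possible because the numbers in the labels do not pair mice across groups. The count of the 7 genes called between KO and WT was 0 in all 34 alternatives. Of 576 alternative neutrophil slopes, 490 kept direction and side of the threshold, 57 fell short of it, 2 newly passed and 27 changed sign.

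The number of genes rising with the neutrophil score in Nckap1l (7) was 4, 2 and 0 in its runs of sample numbers alone, 4 without squamous-positive libraries and 4 in WT libraries. It was 3 with the fibroblast, 4 with the smooth muscle, 4 with the B-cell follicle and 2 with the regulatory T and ILC2 score added. In Dock2 (6) it was 3 with the regulatory T and ILC2 score, and in Gpsm3 (5) it was 3 in WT libraries. Msln did not pass the filter on low counts in the fits of WT libraries alone, so those counts leave it out. In the first run alone it was tested in 2 of the 3 lines with more than 1 run. The share of all genes called was not computed for these alternative neutrophil fits, several of which hold fewer libraries. A lower count is therefore no result particular to the 7 genes. For the keratinocyte score, Nckap1l (3) had 1 with the run as a covariate and Dock2 (2) had 1 by limma-voom. Gpsm3 (1) had 2 by DESeq2, 2 by limma-voom and 2 with the fibroblast score, and Dok3 (2) had 1 by limma-voom, 1 without the 2 farthest libraries and 1 with the run as a covariate. Females against males in Dock2 (1) had 2 without squamous-positive libraries, and the count of genes whose neutrophil slope differed between lines (1) was 0 with a keratinocyte slope per line and 0 with the follicle score.

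Signs changed mostly for Clu, whose main slopes were near 0 in Dock2, Gpsm3 and Dok3. Its neutrophil slope in Gpsm3 was -0.048 in the first run alone, -0.016 without the 2 farthest libraries, -0.064 in WT libraries, and -0.093, -0.0065, -0.14 and -0.10 with the fibroblast, mast cell, regulatory T and ILC2, and follicle scores. In Dok3 it was -0.051 in the first run alone, -0.021 without squamous-positive libraries, -0.023 without the keratinocyte score, -0.00058 with S100a8 and S100a9 as the score, and -0.0021, -0.031, -0.011 and -0.066 with the fibroblast, regulatory T and ILC2, interferon and follicle scores. In Dock2 it was -0.015 with the follicle score. In the third run of Nckap1l alone the slopes of Clu, Ccn2 and Msln were -0.54, -0.18 and -1.27. Also in Nckap1l, Ccn1 and Ccn2 had -0.28 and -0.018 with the regulatory T and ILC2 score and -0.0080 and -0.0095 with the immediate early score. Ccn2 had -0.019 in Gpsm3 WT libraries, -0.066 and -0.12 with the fibroblast score in Gpsm3 and Dok3, and -0.0066 with the endothelium score in Dok3. Past the threshold as falls were Ccn2 in Dok3 with the fibroblast score (adjusted p = 0.0293, edgeR), where the main slope was a called rise, and Clu with the follicle score in Gpsm3 (0.0126) and Dok3 (0.0153). Keratinocyte slopes turned to 0.0081 for Clu in Nckap1l and 0.0068 for Msln in Gpsm3 with the run as a covariate and to 0.025 for Ly6a in Dock2 with the fibroblast score. The KO difference of Clu in Dock2 was 0.083 with the follicle score. The cause was not tested for any of these, and the follicle list was made after seeing Clu, so its fits carry no weight as tests. The fits with an added marker score, with the run as a covariate of the keratinocyte slope, and all alternatives for the sexes and for differences between lines were chosen after seeing the data.

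Without squamous-positive libraries the partner slopes in Nckap1l were no longer called: Ly6a on the interferon score had 0.59 ± 0.16 (adjusted p = 0.183, edgeR), and Ccn1 and Ccn2 on the immediate early score 1.29 ± 0.27 (0.171) and 0.37 (0.411). In Dock2, Ccn2 had 0.78 (0.115) without them and 0.74 (0.0593) by limma-voom.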
